A study of Homo sapiens with 2 samples.

Results

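RNA polymerases I, II and III are the nuclear enzymes that copy DNA into RNA, and their subunit genes were followed here in CL1-0, a human lung adenocarcinoma cell line, given an antibody to FSTL1, a secreted glycoprotein of the follistatin family. Members were the genes with a probe set of their own whose symbol begins with POLR1, POLR2 or POLR3 and a further letter, with older symbols brought up to date. The rule found 75 probe sets of 32 genes, out of 54675 probe sets and 19775 genes with a probe set of their own. Of the 32, POLR1HASP is a transcribed pseudogene antisense to POLR1H and no subunit, and it is described apart. The other 31 comprise 29 subunits and POLR2J2 and POLR2J4, which are copies of POLR2J, the second of them a transcribed pseudogene. POLR2M and POLR2J3 are named only by probe sets annotated to several genes and are not described.

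The samples were 2 arrays of total RNA, 1 after 6 h with the antibody and 1 at 0 h. Per the labels, cells of both times had been stably transduced and kept under puromycin, and the vector is not named. Cells kept for 6 h without the antibody were not analysed here, so the antibody and the time in culture cannot be told apart. Each time has 1 array, so no difference below has a replicate check or a test, and "higher" and "lower" describe these arrays.

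The deposited values are linear intensities, and levels of different probe sets are not comparable. An intensity of 45.4, the median of all values, was taken as a floor, and a probe set was called measured when it lay above the floor on at least 1 array. Each gene was represented by its brightest probe set, and the difference is log2 of the 6 h value minus log2 of the 0 h value. The 6 h array had a median of 44.9 and the 0 h array one of 45.8, and the median difference over 12669 measured genes was 0.017 with an SD across genes of 0.19. Differences of probe sets of the same gene scattered with an SD of 0.16, which is the only yardstick of size here. It includes dim sets and sets of different transcripts, and it holds no variation between cultures or repeat arrays. The labels name type II alveolar cells, and 5 of 8 markers of that type with a probe set were measured, their brightest sets lying between 61.0 and 208 at 6 h and between 51.1 and 173 at 0 h. Of 5 epithelial markers 2 were measured, both above the floor on each array: KRT18 (121 at 6 h and 148 at 0 h) and KRT8 (52.4 at 6 h and 48.1 at 0 h). EPCAM (13.6 at 6 h and 17.9 at 0 h), CDH1 (36.0 at 6 h and 27.4 at 0 h) and KRT19 lay below the floor, as did the 3 leukocyte markers with a probe set. Summed over 1 set per gene, the one brightest over both arrays, type II markers came to 616 at 6 h and 556 at 0 h, epithelial markers to 244 at 6 h and 266 at 0 h, fibroblast markers to 274 at 6 h and 333 at 0 h, and endothelial markers to 101 at 6 h and 125 at 0 h. These sums include sets under the floor. Only 2 of 5 fibroblast markers and 1 of 4 endothelial markers with a probe set were measured. The sums also add levels of different probe sets, so no direction is read from them. The direction of the fibroblast sum further depends on the set of COL1A1 chosen, whose 2 sets differed by -0.36 and 0.94. Sets of type II markers also disagreed, from -0.39 to 0.35 for SFTPB, -0.18 to 0.28 for NKX2-1 and -0.30 to 0.018 for SFTPC. ABCA3 and NAPSA had 1 measured set each, both at 0.26. The part of these markers in the results was not tested. FSTL1 itself was near the floor, at 52.8 at 6 h and 58.3 at 0 h.

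RNA polymerase I makes the large ribosomal RNA precursor, RNA polymerase II makes messenger RNA and many noncoding RNAs, and RNA polymerase III makes transfer RNA, 5S ribosomal RNA and other short RNAs. The enzymes share a core of common subunits, polymerases I and III share a further pair, and each has its own catalytic pair and peripheral subunits. Output of polymerases I and III is known to follow growth and nutrient signals, with MYC as an activator and MAF1 as a repressor of polymerase III.

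At the gene level, the sequences shown are the 250 bases upstream of the annotated start of 4 polymerase III genes, whose transcripts were lower at 6 h on their brightest probe sets. POLR3E is included because a transfer RNA gene lies in its window, POLR3B for the lowest value of the set, and POLR3A and POLR3C for the letters CACGTG. They are from RefSeq on GRCh38.p14, written 5′ to 3′ on the gene's strand, and for POLR3B and POLR3C the more upstream of 2 windows is given. Capitals mark the motifs searched on both strands, which were the E-box CACGTG, the ETS site CCGGAAG, the CCAAT box CCAAT and GGTTCGA, the core of the B box inside transfer RNA genes. No motif found in these 4 windows overlaps another.
POLR3E (chr16:22297159-22297408, plus strand): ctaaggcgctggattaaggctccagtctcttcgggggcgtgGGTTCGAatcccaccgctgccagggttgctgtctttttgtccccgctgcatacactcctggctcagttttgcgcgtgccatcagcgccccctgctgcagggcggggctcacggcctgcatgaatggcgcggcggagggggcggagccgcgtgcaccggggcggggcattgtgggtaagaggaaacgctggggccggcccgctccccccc
POLR3B (chr12:106357498-106357747, plus strand): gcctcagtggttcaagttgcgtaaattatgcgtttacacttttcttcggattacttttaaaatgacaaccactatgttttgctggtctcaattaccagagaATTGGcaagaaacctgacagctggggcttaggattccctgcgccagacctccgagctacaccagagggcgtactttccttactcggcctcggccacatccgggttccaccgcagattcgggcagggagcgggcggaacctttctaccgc
POLR3A (chr10:78029516-78029765, minus strand): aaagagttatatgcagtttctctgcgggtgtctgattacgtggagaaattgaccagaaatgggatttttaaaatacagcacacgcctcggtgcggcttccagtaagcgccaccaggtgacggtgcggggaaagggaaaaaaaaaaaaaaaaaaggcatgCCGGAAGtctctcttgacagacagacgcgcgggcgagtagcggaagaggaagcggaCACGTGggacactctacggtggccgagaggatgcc
POLR3C (chr1:145823950-145824199, plus strand): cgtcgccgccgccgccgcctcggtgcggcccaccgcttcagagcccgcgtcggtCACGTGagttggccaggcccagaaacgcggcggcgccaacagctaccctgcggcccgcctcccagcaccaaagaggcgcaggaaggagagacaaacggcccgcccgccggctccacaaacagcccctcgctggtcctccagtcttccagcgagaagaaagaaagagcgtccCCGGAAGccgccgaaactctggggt

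The capitals in POLR3E are the B box core, which 1 of the 23 subunit genes with a window held, against 0.672% of 35116 windows in the RefSeq table. RefSeq places the leucine transfer RNA gene TRL-AAG2-4 there, with 63 of its 82 bases inside the window, so a polymerase III template adjoins the start of a polymerase III subunit gene. A transfer RNA gene overlapped 28 of all the windows. The capitals in POLR3B are a CCAAT box read on the opposite strand. A CCAAT box on either strand occurred in 6 of the 23 genes, 4 of them among the 7 polymerase III genes with a window, against 32.0% of all windows. POLR3A and POLR3C each hold 1 E-box and 1 ETS site. An E-box occurred in 2 of 7 polymerase III genes, in 1 of 5 polymerase I genes, POLR1G, and in 0 of 4 polymerase II genes, against 6.34% of all windows. An ETS site occurred in 7 of the 23 genes, against 8.52% of windows. A subunit gene was counted when any of its windows held the motif, whereas the shares are of single windows, 35116 of them for 27305 genes. Counts and shares are therefore not in like units, which favours the subunit genes. The CCAAT box counted for POLR3C is not in the window printed. These matches are letters in a window, not binding sites, and 23 of the 31 genes have a window in the table, POLR3G not among them.

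Over all 31 genes, 24 were lower and 7 were higher at 6 h, with a median difference of -0.049. Among all measured genes 45.7% were lower and 54.3% higher. The set was proposed with this same comparison known, so these counts describe it and support nothing. A log2 difference of 0.32 was reached by 0 of the 31 in either direction, where 6.28% of measured genes were at least that much higher and 3.0% at least that much lower. The 1.5-fold mark was also reached by 0 of the 31, where the shares of measured genes were 0.75% higher and 0.182% lower. At 1.1-fold, a size chosen after the data were seen, 1 was higher and 7 were lower, against 25.1% of measured genes higher and 16.7% lower. For 25 of the 31 the difference was smaller than this scatter between sets of 1 gene, 0.16.

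**Figure D1:**
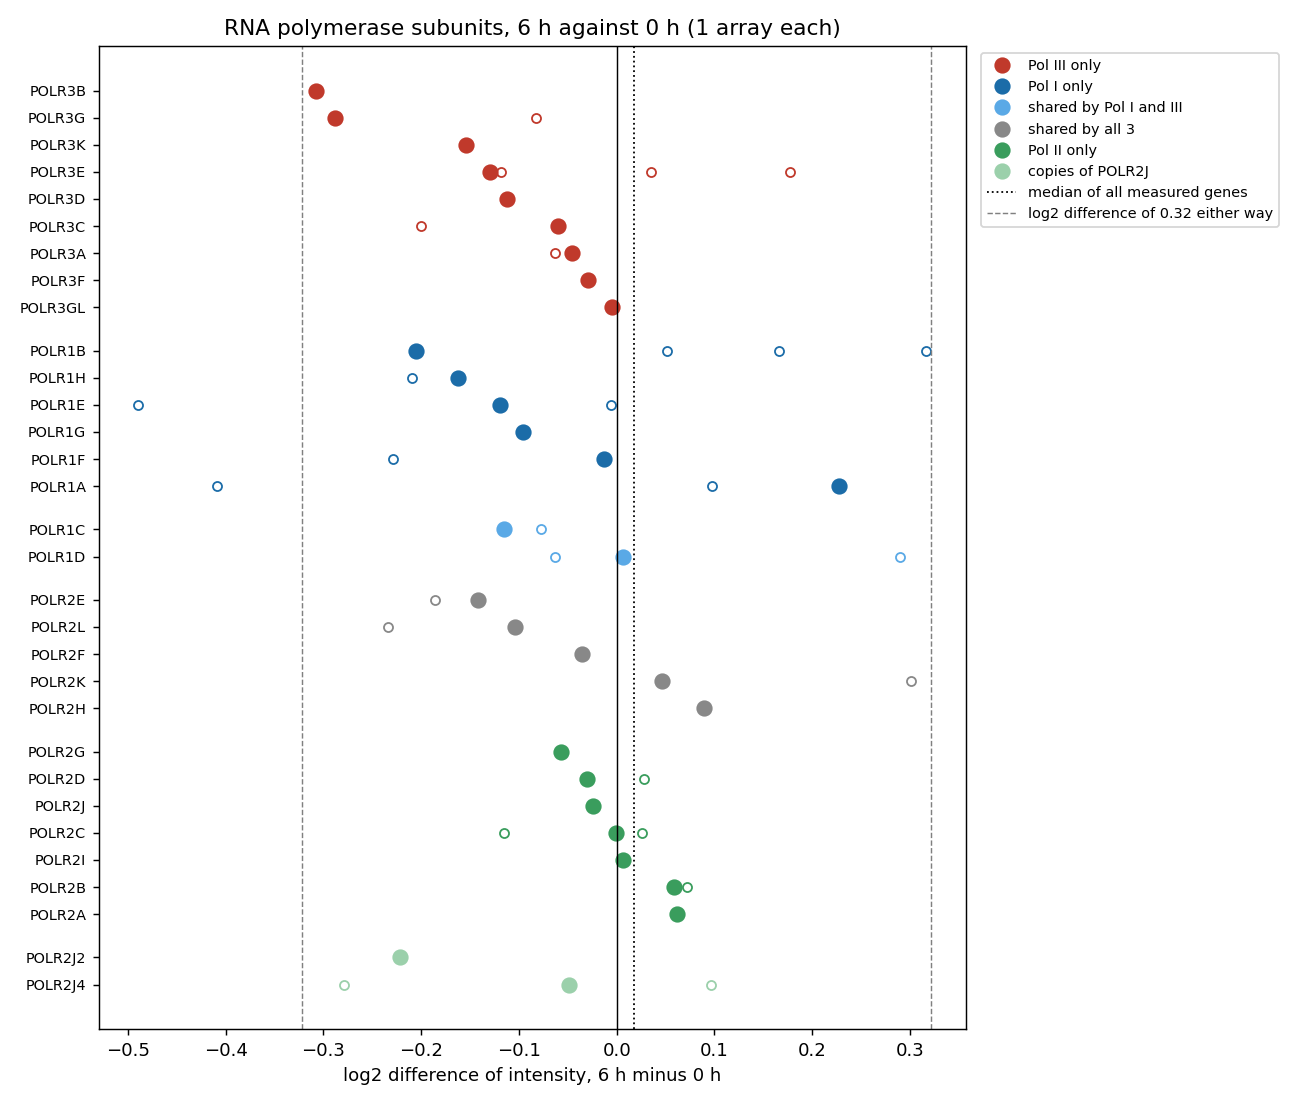
Log2 difference of intensity, 6 h minus 0 h, on the horizontal axis for each gene, grouped by the polymerase it belongs to. Filled points are the brightest probe set, open points the other measured sets, dashed lines mark a log2 difference of 0.32 either way and the dotted line the median of all measured genes (0.017). The 9 polymerase III points all lie left of 0, polymerase II points lie on both sides of it, and some open points of POLR1B and POLR1A lie on the other side from their filled points.

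The 9 measured subunits found only in polymerase III were all lower on the brightest probe set, with a median difference of -0.11 and a range of -0.31 to -0.0046. POLR3B, the second largest subunit and part of the catalytic centre, had the lowest value, at 498 at 6 h against 617 at 0 h. That is 1.24-fold lower, a difference of -0.31, and 3.43% of measured genes had a value as low or lower. Its other 2 probe sets lay under the floor on both arrays, so the value rests on 1 probe set. Under centring, quantile and loess scaling the difference was -0.32, -0.37 and -0.36, past the 0.32 mark. The largest subunit, POLR3A, which completes the catalytic centre, was at 699 at 6 h and 721 at 0 h, a difference of -0.046. Its second measured set differed by -0.063. The catalytic pair therefore differed unequally between the arrays, a contrast that was not tested.

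POLR3C, POLR3F and POLR3G form a trimer that polymerase III needs to start transcription. POLR3G was at 271 at 6 h against 331 at 0 h, 1.22-fold lower with a difference of -0.29. Its second measured set was above the floor at 0 h only, at 48.1, and was 37.3 at 6 h. POLR3GL encodes the alternative to POLR3G in this trimer, with POLR3G known from pluripotent and tumour cells and POLR3GL from most tissues. POLR3GL was at 843 at 6 h and 845 at 0 h, a difference of -0.0046, so the alternative subunits were apart by 0.28 on the log2 scale in their differences, and each rests on 1 bright probe set. POLR3C was at 941 at 6 h and 981 at 0 h, with differences of -0.060 and -0.20 in its 2 sets. POLR3F was at 234 at 6 h and 239 at 0 h, a difference of -0.029.

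POLR3D and POLR3E pair with each other in initiation and termination, and POLR3K carries the activity that cleaves the nascent RNA. POLR3D was at 377 at 6 h and 407 at 0 h, a difference of -0.11 on its 1 probe set. POLR3E was at 1100.0 at 6 h and 1203 at 0 h, a difference of -0.13, but its 4 measured sets ran from -0.13 to 0.18, with 2 lower and 2 higher. POLR3K was at 1694 at 6 h and 1885 at 0 h, a difference of -0.15. Over all 15 measured probe sets of the polymerase III subunits 13 were lower, and the 2 that were higher belong to POLR3E. The 13 include the second set of POLR3G, above the floor at 0 h only, which could not have counted as higher. Of all measured probe sets with 1 gene 45.1% were lower. With _x_at and _s_at sets left out, which can bind several transcripts, 7 subunits were left with a median of -0.046, and POLR3E was at 0.035.

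**Figure D2:**
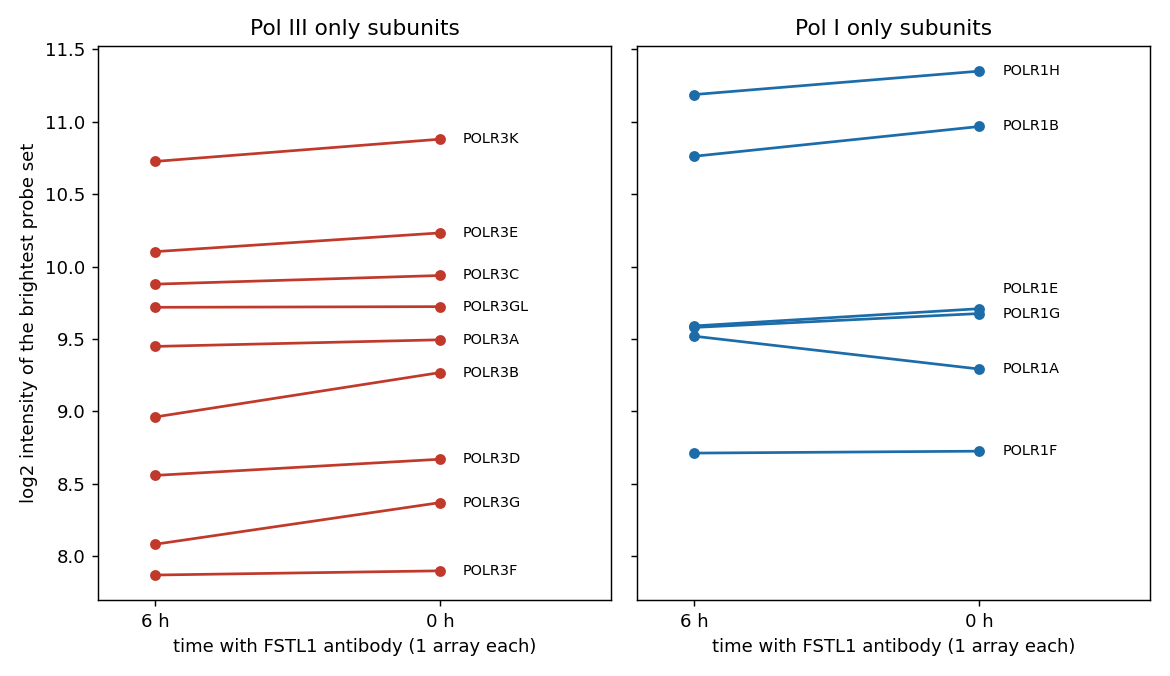
Log2 intensity of the brightest probe set at 6 h (left in each panel) and at 0 h (right), 1 array each, for subunits of polymerase III only and of polymerase I only, with a line joining the values of a gene. All 9 polymerase III lines are lower at 6 h, the steepest being POLR3B (498 at 6 h and 617 at 0 h) and POLR3G (271 and 331), and POLR1A is the 1 polymerase I line that is higher at 6 h. Heights of different genes are not comparable.

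Subunits found only in polymerase I were lower for 5 of 6 genes on the brightest probe set, with a median of -0.11. The catalytic pair had opposite signs. POLR1A, the largest subunit, was at 734 at 6 h and 627 at 0 h, 1.17-fold higher with a difference of 0.23. POLR1B, the second largest, was at 1737 at 6 h and 2003 at 0 h, 1.15-fold lower with a difference of -0.21. Both genes had probe sets that disagreed: the 3 sets of POLR1A differed by 0.23, 0.097 and -0.41, and the 4 sets of POLR1B by -0.21, 0.051, 0.17 and 0.32. No direction is settled for either gene, and for POLR1B 3 of 4 sets were higher, with a median over its sets of 0.11.

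The other polymerase I subunits did not have sets of opposite sign. POLR1H, which carries the RNA cleavage activity of polymerase I, was at 2334 at 6 h and 2611 at 0 h, with differences of -0.16 and -0.21 in its 2 measured sets. Its further 4 sets lay below the floor. POLR1E and POLR1G encode a peripheral pair that acts in initiation and elongation. POLR1E was at 771 at 6 h and 837 at 0 h, a difference of -0.12, and its other sets differed by -0.0053 and, close to the floor, -0.49. POLR1G was at 765 at 6 h and 818 at 0 h, a difference of -0.096. POLR1F, a stalk subunit that contacts the initiation factor RRN3, was at 419 at 6 h and 423 at 0 h, a difference of -0.013, and its second measured set, close to the floor at 45.9 at 6 h and 53.8 at 0 h, differed by -0.23. Without _x_at and _s_at probe sets the polymerase I median was -0.013 over 5 genes, with 3 lower.

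Subunits shared between enzymes had smaller medians. POLR1C and POLR1D form the assembly platform of both polymerase I and polymerase III and are mutated in Treacher Collins syndrome. POLR1C was at 1514 at 6 h and 1639.9 at 0 h, with differences of -0.12 and -0.078 in its 2 sets. POLR1D was at 3492 at 6 h and 3478 at 0 h, a difference of 0.0061, and its other sets differed by 0.29 and -0.063, so its direction is not settled.

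The 5 subunits common to all 3 enzymes had a median of -0.035, with 3 lower and 2 higher. POLR2E was at 3773 at 6 h and 4162 at 0 h, with differences of -0.14 and -0.19 in its 2 sets. POLR2L was at 5299 at 6 h and 5697 at 0 h, with differences of -0.10 and -0.23. POLR2F was at 4430.2 at 6 h and 4540.3 at 0 h, a difference of -0.035. These lower members stood against a pair that was higher on every measured set. POLR2H was at 4295 at 6 h and 4037 at 0 h, a difference of 0.089, and POLR2K was at 3099 at 6 h and 3001 at 0 h, with differences of 0.047 and 0.30. The common core therefore did not differ in 1 direction on these arrays, and without _x_at and _s_at sets its median was 0.027 over 4 genes.

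Subunits found only in polymerase II had brightest sets between -0.057 and 0.062, with a median of -0.0010 over 7 genes, 4 lower and 3 higher. Without _x_at and _s_at sets the median was 0.045 over 4 genes, so its sign is not settled. POLR2A, the largest subunit, whose repeat-rich tail is phosphorylated through the transcription cycle, was at 603 at 6 h and 578 at 0 h, a difference of 0.062. POLR2B, its catalytic partner, was at 8057 at 6 h and 7737 at 0 h, with differences of 0.059 and 0.072 in its 2 measured sets. Both catalytic subunits of polymerase II were higher by less than the scatter between sets. The stalk subunits POLR2D and POLR2G differed by -0.031 and -0.057, but the other measured set of POLR2D differed by 0.028, so its direction is not settled. POLR2C and POLR2J, which form the assembly platform of polymerase II, differed by -0.0010 and -0.024, with the other sets of POLR2C at -0.12 and 0.026, and POLR2I, which acts in accuracy and transcript cleavage, by 0.0062, which lay below 0 under centring, quantile and loess scaling. None of these 5 genes had a brightest probe set below 881 at 6 h or below 899.7 at 0 h, so all were far above the floor.

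The POLR2J copies were dim. POLR2J2 was at 89.0 at 6 h and 104 at 0 h, a difference of -0.22. POLR2J4 was at 103 at 6 h and 106 at 0 h, and its 3 measured sets differed by -0.049, -0.28 and 0.097. These genes are near-identical to POLR2J over parts of their sequence, so signal cannot be assigned to 1 of them with certainty, POLR2J included.

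**Figure D3:**
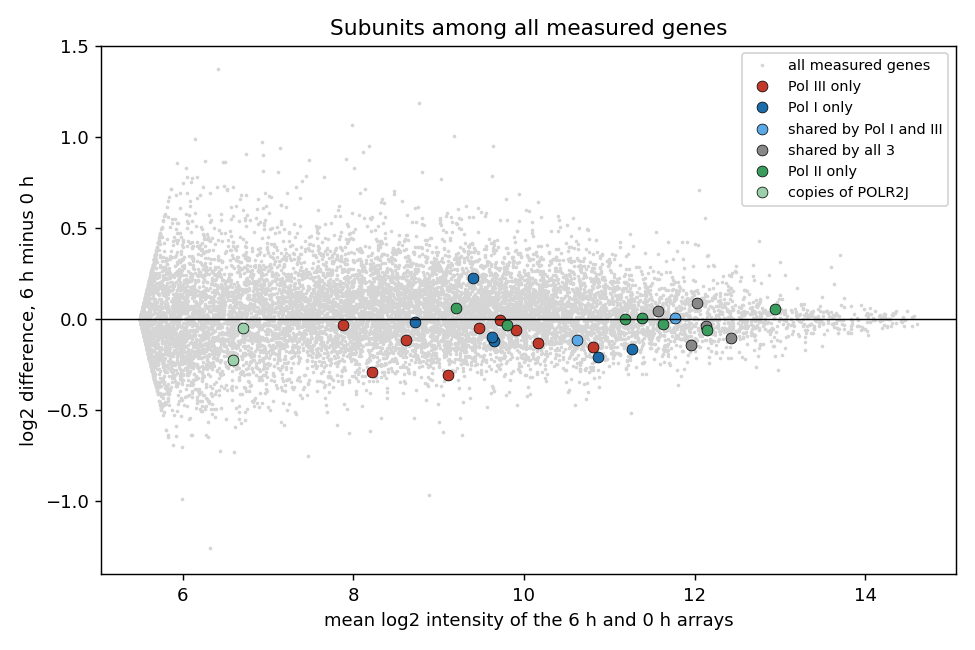
Log2 difference, 6 h minus 0 h, on the vertical axis against the mean log2 intensity of both arrays on the horizontal axis, for all 12669 measured genes (grey) and the 31 subunit genes (coloured by polymerase). The subunits lie inside the grey cloud at every brightness, and polymerase II and common subunits are among the brighter points. POLR3B and POLR3G lie in its lower part, with 3.43% and 4.15% of measured genes as low or lower, and the lowest gene is at -1.25.

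The background differed slightly with brightness. Genes brighter than the median of measured genes had a median difference of 0.025 and 42.8% were lower, against 0.017 and 45.7% over all measured genes. When a loess curve of the difference on brightness was taken off, all 9 polymerase III subunits stayed below 0 with a median of -0.16. Where a gene had several measured probe sets, all had the same sign for 11 of 18 subunit genes, with 9 lower and 2 higher, against 51.2% of 6122 genes with several measured sets. The 9 include POLR3G, whose second set was above the floor at 0 h only and could not have counted as higher.

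The partner genes of the polymerases were taken from lists of initiation, elongation and assembly factors. Polymerase III initiation factors had a median of -0.070, and 10 of 17 measured genes were lower, against 45.7% of all measured genes. TBP, the TATA-binding protein that all 3 enzymes use, was the lowest, at 444 at 6 h and 535 at 0 h, a difference of -0.27 on 1 measured set. The highest was SNAPC1, of the complex that recruits polymerases II and III to small nuclear RNA genes, at 867 at 6 h and 657 at 0 h, a difference of 0.40. On brightest sets this list spread to both sides of 0, unlike the polymerase III subunits, of which POLR3E had 2 other sets above 0. The difference in spread was not tested. With _x_at and _s_at sets left out the median of the list was 0.023, so its sign is not settled.

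Among 9 polymerase I initiation factors the median was -0.041 and 8 were lower, against 45.7% of all measured genes. TBP was again the lowest, and TAF1C, of the selectivity factor SL1, the highest at 0.029, though its other measured set differed by -0.54. Polymerase II initiation factors had a median of 0.019 over 17 measured genes. Of these, 7 were lower and 10 higher, near the 54.3% of all measured genes that were higher. This median lay below 0 under quantile and loess scaling and without _x_at and _s_at sets. GTF2H3, of the TFIIH complex, was the highest, at 1726 at 6 h and 1488 at 0 h, a difference of 0.21.

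Polymerase II elongation factors had a median of 0.099, with 14 of 18 measured genes higher, against 54.3% of all measured genes. AFF4, the scaffold of the super elongation complex, was the highest, at 1203 at 6 h and 889 at 0 h, with 3 measured sets between 0.22 and 0.44. SUPT4H1, a subunit of the elongation factor DSIF, was the lowest, at 1500.3 at 6 h and 1646 at 0 h, with both of its sets at -0.13. Factors that assemble polymerases had a median of -0.080, with 10 of 14 lower, against 45.7% of all measured genes. ZNHIT2, a partner of the R2TP chaperone machinery, was the lowest of these at 123 at 6 h and 169 at 0 h, with its other set at -0.050, and PIH1D1, a subunit of R2TP, was the highest at 0.16.

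**Figure D4:**
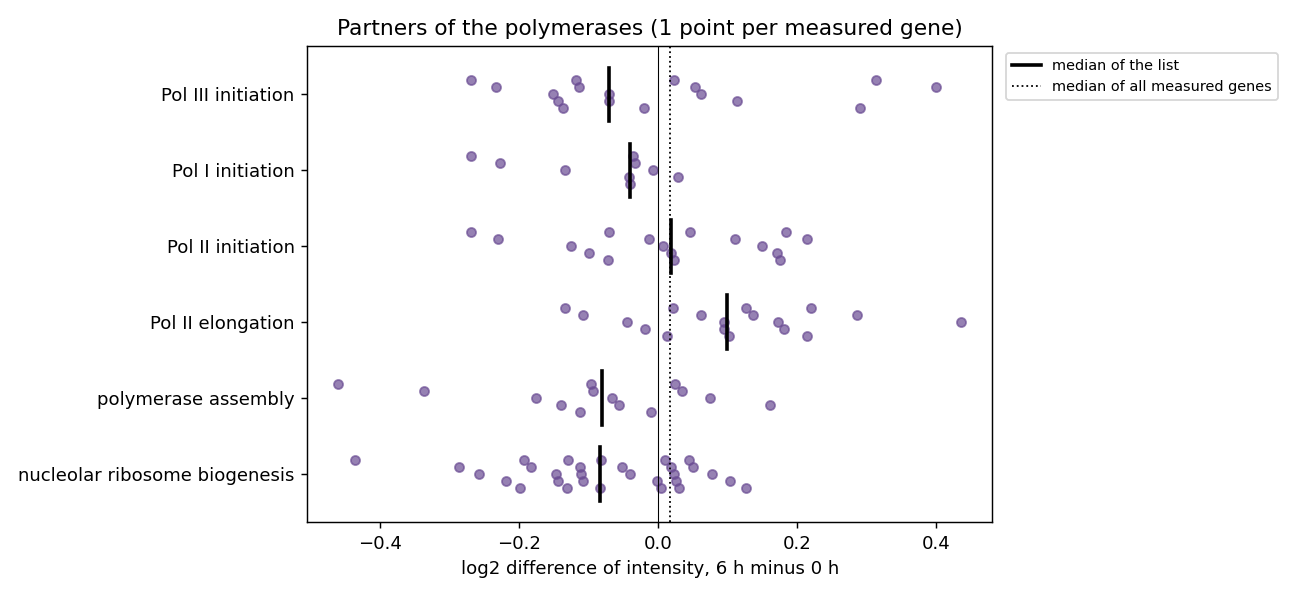
Log2 difference of intensity, 6 h minus 0 h, for each measured gene of 6 partner lists (1 point per gene, vertical spread within a row only separates points). Black bars are the list medians, from -0.083 for nucleolar ribosome biogenesis factors to 0.099 for polymerase II elongation factors, and the dotted line is the median of all measured genes (0.017).

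Nucleolar ribosome biogenesis factors, which process the product of polymerase I, had a median of -0.083, with 19 of 30 lower. Among all measured genes 45.7% were lower. RRS1, a factor of large ribosomal subunit assembly, was the lowest, at 1454 at 6 h and 1969 at 0 h, a difference of -0.44, and WDR43, of the small subunit processome, the highest at 0.13. Of the polymerases' own products, RNA45SN5, a gene of the ribosomal RNA precursor, was at 427 at 6 h and 656 at 0 h on its brighter set. That is a difference of -0.62, and its other set differed by -0.15. Where these sets lie in the gene was not examined, so precursor and mature RNA cannot be told apart. RPPH1, the RNA of RNase P and a polymerase III product, was at 119 at 6 h and 124 at 0 h, a difference of -0.054. The control probe sets for mature ribosomal RNA, known by their Affymetrix names and given no gene in the annotation used here, did not run in 1 direction. Those for 18S RNA were at 1358 at 6 h and 1996 at 0 h (5′, -0.56), 805 at 6 h and 1016 at 0 h (middle, -0.34), and 3197 at 6 h and 3068 at 0 h (3′, 0.059). Those for 28S RNA were higher, at 7492 at 6 h and 5609 at 0 h (5′, 0.42) and 4072 at 6 h and 3451 at 0 h (middle, 0.24), with the 3′ set below the floor. No direction is therefore settled for the products of polymerase I. The other products listed have no probe set of their own in the annotation used here. Labelling of such arrays usually starts from the poly(A) tail, which these RNAs mostly lack.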

How the data were processed

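Total RNA of 2 samples of CL1-0 cells, 1 array each for 6 h and 0 h with the FSTL1 antibody, was measured on Affymetrix expression arrays. The authors deposited linear probe set intensity, summarised with MAS5 per the submitters' processing notes. Its parameters, and any scaling between the arrays, are not given in the sources used here. Trimmed of 2% at each end, the 6 h array averaged 262 and the 0 h array 256.

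Genes of probe sets came from the annotation of the platform. Entrez identifiers gave current RefSeq symbols, and all 32 genes found by the rule matched. Of 54675 probe sets 41097 had 1 gene, 1801 several and 11777 none, and only those with 1 gene were used. Values under the floor (the 50th percentile) were set to it before log2 was taken. With 1 array a group no test was made, and the number of arrays limits the precision. Members and lists were chosen with earlier results of these data known. All subunits may be named. Of each partner list the highest and lowest member above the floor on both arrays were named, and MYC, MAF1, POLRMT and FSTL1 were named whatever their values. The steps were tested on simulated data, with Python 3.11.15, pandas 2.3.3, numpy 2.4.6 and statsmodels 0.14.6. The alternatives tried were the 40th and the 60th percentile as floor, log2(value + 16) with neither floor nor filter, centred differences, quantile normalization, removal of a loess curve (span 0.3), the median of a gene's measured sets, and leaving out _x_at and _s_at sets. The 1.1-fold counts, the counts over probe sets, the brighter genes as background and the initiation lists without TBP were added after the data were seen.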

Additional observations from a re-analysis of the deposited data

How the results depend on the processing

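No paired analysis was possible because each time has 1 array. Of 31 subunit genes, 26 kept their sign in each of the 8 alternatives that gave them a value, 21 lower and 5 higher (6 of the 26 have no value without _x_at and _s_at sets); POLR1B, POLR1D, POLR2D, POLR2I and POLR3E did not. Leaving out _x_at and _s_at probe sets changed most: the medians were -0.046 for polymerase III, -0.013 for polymerase I, -0.132 for polymerase I initiation, 0.023 for polymerase III initiation and -0.016 for assembly factors, with common subunits at 0.027 and polymerase II subunits at 0.045, both above 0, and of the 24 subunit genes left 15 were lower (3 of polymerase I and 1 of polymerase II), with 3 at least 1.1-fold higher and 4 lower. Fewer genes were then measured, 9847 in all, of which 44.7% were lower. With quantile normalization the medians were -0.086 for all subunits, -0.168 for polymerase III, -0.026 for polymerase II initiation and 0.050 for polymerase II elongation. With loess the last pair were -0.021 and 0.055. Subunits lower by a log2 difference of 0.32 or more numbered 1 with centring and 2 with quantile or loess scaling, and those at least 1.1-fold lower numbered 12 with quantile and 12 with loess scaling. With the median of a gene's sets, polymerase I initiation was at -0.135, polymerase III initiation at -0.021 and the products at -0.219. The cause of these shifts was not tested. The polymerase III median stayed between -0.17 and -0.046. Without TBP the initiation medians were -0.039 (I), 0.021 (II) and -0.045 (III). Dim probe sets, under about the floor of 45.4, carry no direction here.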

Other observations

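POLR1HASP, the transcribed pseudogene antisense to POLR1H, had 3 probe sets of its own, of which 1 was measured. That set was at 53.4 at 6 h and 64.7 at 0 h, a difference of -0.28 close to the floor.

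The 2 regulators listed differed by less than the scatter between sets of 1 gene, 0.16. MYC, which activates transcription of polymerase I and III genes, was at 1543 at 6 h and 1462 at 0 h, a difference of 0.078. MAF1, the repressor of polymerase III, was at 468 at 6 h and 442 at 0 h, a difference of 0.083. POLRMT, the mitochondrial RNA polymerase, which is encoded apart from the nuclear enzymes, was at 881 at 6 h and 944 at 0 h, a difference of -0.10, with its other measured set at -0.41.

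In polymerase III initiation, the TFIIIB subunits BRF1, BRF2 and BDP1, named after their values were seen, differed by -0.23, 0.023 and 0.11, and the measured sets of BRF1 ran from -0.23 to 0.083.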
